A study of Homo sapiens with 12 samples.

Results

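Agrin, perlecan and the laminin chains are parts of the basement membrane, and dystroglycan is part of its anchor in the cell surface. From this group, 9 genes were followed here: AGRN, HSPG2, LAMA3, LAMA5, LAMB1, LAMB2, LAMB3, LAMC1 and DAG1. They are 9 of the 57736 genes in the deposited count tables, were taken by gene name, and the counts of all listed 3′ regions of a gene were summed. The group was put together with its response to the extract in each cell line and its difference between the lines already known, so the values of these genes are given as a description without a test. The cells were HepG2, an established human liver cancer line, and Ls174, an established human line derived from colon carcinoma. The labels give both as wild type. Each line was cultured for 24 h without treatment (control) or with 0.7 mg/ml of an extract of the red seaweed Hypnea musciformis (HME), a dose labelled as IC50 (the study's methods give a slightly higher concentration). RNA of 3 biological replicates per condition was sequenced with a 3′ mRNA kit, which gave 12 libraries in 4 groups of 3. The comparisons were HME against control within HepG2, HME against control within Ls174, untreated HepG2 against untreated Ls174, and the difference between the HME responses of both lines.

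The basement membrane is a thin sheet of matrix on which epithelial cells rest. Its laminins are trimers of an α, a β and a γ chain that polymerize on the cell surface, where they are held by integrins and by α-dystroglycan, while the heparan sulfate proteoglycans agrin and perlecan link laminin to other matrix proteins and bind growth factors. Dystroglycan carries sugar chains built by O-mannosylation to which laminin, agrin and perlecan bind.

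The libraries held between 1790841 and 3656662 counts, and a floor of 3 counts corresponded to 0.820 to 1.68 CPM (counts scaled to a library of 1e6), which covers counting error only. All 7 hepatocyte markers on the list had counts in every HepG2 library (summed level 10523 to 18839 CPM), and the 7 colon epithelium markers summed to 235 to 356 CPM in Ls174 and to 4.36 to 9.50 CPM in HepG2. Hepatocyte markers summed to 463 counts in Ls174 control 3 and to 130 in Ls174 HME 1, against 0 to 29 in the other 4 Ls174 libraries. HepG2 HME 2 held 2730 counts of the 8 mesenchymal markers, nearly all from COL1A1 (1560) and COL1A2 (1153) with DCN, LUM and PDGFRB at 0, against 7 to 28 in the other HepG2 libraries and 1 to 17 in Ls174. The 5 endothelial markers in the tables summed to at most 7 counts per library, and the blood markers to 202 to 723 CPM in HepG2, all but at most 6 counts of a library from LYZ and CD74 with PTPRC and CD3E at 0, and to at most 5.89 CPM in Ls174. HepG2 control 2 and Ls174 control 1 stood apart from the other controls of their line. The chi-square per degree of freedom against the other controls was 49.1 and 54.1 for HepG2 control 2, where controls 1 and 3 gave 13.6, and it was 34.5 and 37.0 for Ls174 control 1, where controls 2 and 3 gave 5.68. No pair of replicates agreed within sampling noise, so none was counted as a duplicate.

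Counting was done at the 3′ end, and in 7 of the 9 genes a single region held at least 95% of the counts. In GRCh37, the leading region of AGRN (ENSG00000188157) was chr1:990362-991693 on the plus strand, with 99.95% of the gene's counts and 85.4% of its length in the annotated 3′ UTR. The leading region of HSPG2 (ENSG00000142798) was chr1:22148541-22149808 on the minus strand (84.5% UTR), and that of LAMA5 (ENSG00000130702) was chr20:60883918-60884531 on the minus strand (44.6% UTR and 22.3% coding sequence). The leading regions of LAMB1 (ENSG00000091136, chr7:107564047-107564395), LAMB2 (ENSG00000172037, chr3:49158350-49158689), LAMC1 (ENSG00000135862, chr1:183111926-183114924) and DAG1 (ENSG00000173402, chr3:49570633-49573245) lay in the last exon or just past its end. Nearly all counts of AGRN (2186 of 2188 in the leading region) were also listed under RP11-54O7.14, a sense-intronic transcript whose counted region is chr1:991497-991693, and these are the same reads. AGRN ends at base 991498 in the annotation, so nearly all of its reads touched the last bases of the gene or the flank past it. The region of HSPG2 overlaps one of LDLRAD2 on the opposite strand, which had 0 counts where HSPG2 had 640, while the region of LAMA5 overlaps one of ADRM1 on the opposite strand with 5526 counts. How the counting treated strand is not given in the sources used here.

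Promoter sequences of 8 of the 9 genes (all but AGRN) were found in RefSeq (GRCh38.p14). The 250 bases before the start are shown for HSPG2, LAMA5 and LAMB2, whose counts were lower with HME in every pairing of an HME library with a control library of the same line, with each match to GGGCGG on either strand (the GC box, which Sp1-type factors bind) in capitals. The intervals are chr1:21937311-21937560, chr20:62367313-62367562 and chr3:49133051-49133300, all on the minus strand.
HSPG2: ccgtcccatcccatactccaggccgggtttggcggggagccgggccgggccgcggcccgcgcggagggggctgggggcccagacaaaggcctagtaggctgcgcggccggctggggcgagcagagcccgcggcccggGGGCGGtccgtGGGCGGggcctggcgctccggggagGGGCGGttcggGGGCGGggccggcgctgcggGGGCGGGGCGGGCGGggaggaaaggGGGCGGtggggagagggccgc
LAMA5: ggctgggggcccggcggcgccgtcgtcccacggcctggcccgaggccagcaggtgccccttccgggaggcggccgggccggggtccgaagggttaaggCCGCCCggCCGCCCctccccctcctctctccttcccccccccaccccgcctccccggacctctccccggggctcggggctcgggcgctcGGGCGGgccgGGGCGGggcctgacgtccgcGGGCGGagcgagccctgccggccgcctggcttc
LAMB2: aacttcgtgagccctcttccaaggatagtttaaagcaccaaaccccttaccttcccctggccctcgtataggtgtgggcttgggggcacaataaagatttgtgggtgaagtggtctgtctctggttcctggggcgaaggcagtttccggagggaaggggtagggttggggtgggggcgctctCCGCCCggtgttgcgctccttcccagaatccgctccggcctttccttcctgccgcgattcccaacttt

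The promoter of HSPG2 held 8 GC-box matches, of which 3 overlap, that of LAMA5 held 5 and that of LAMB2 held 1. Among the other members, LAMB1 had 4 matches, LAMC1 and DAG1 had 3 each, and LAMA3 and LAMB3 had 1 each. At least 1 match was present in 42.6% of all 35116 promoters of this length and 3 or more in 13.9%. The promoters of HSPG2 and LAMA5 had a GC content of 82.8%, against 58.4% in LAMB2 and a median of 58.0% over all promoters. TATAAA on the gene's strand (6.80% of all promoters) was found in none of the 8, TGANTCA on either strand (6.57%) only in LAMA3 with 2 matches, and CCAAT on either strand (32.0%) only in DAG1 with 1. Members with and without lower counts after HME in HepG2 both had GC-box matches, and a match is a description of the letters only.

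With HME, 6 of the 7 genes that passed the filter on low counts had a negative log2 fold change in HepG2 (all 7 with scaling by library size or a GC offset, where LAMB1 turned from 0.08 to −0.12 and −0.11) and all 7 in Ls174, while LAMA3 and LAMB3 failed the filter. In HepG2, the median log2 fold change of the 7 genes was −1.47, against −0.04 over all 11343 genes tested, of which 52.3% were below 0. In Ls174 it was −1.53, against −0.00287 over 11319 genes, of which 50.1% were below 0. By edgeR's quasi-likelihood test with Benjamini-Hochberg adjustment over all genes, HSPG2 and LAMA5 were among the genes called lower in HepG2 (0.538% of all genes tested, 61 genes) and AGRN and HSPG2 among those called lower in Ls174 (0.866%, 98 genes). The thresholds of the study's methods (unadjusted p under 0.05 and log2 fold change beyond 0.58), called the study's thresholds here, were applied to edgeR's p. The study's results name a slightly lower limit on the fold change. At these thresholds, 4 of the 7 were lower in HepG2 (AGRN, HSPG2, LAMA5 and LAMB2), where 10.9% of all genes were. In Ls174, 5 were lower (the same 4 and DAG1), where 7.85% of all genes were. Since the genes were chosen on these contrasts, nothing is read from these counts. They also changed when a library was left out, as did the calls among all genes. Those ran from 95 to 921 in HepG2 (375 with all libraries) and from 0 to 979 in Ls174 (134 with all libraries). Called members numbered 1 without HepG2 control 1 or 3, 4 without control 2 and 0 without any 1 of the HepG2 HME libraries. In Ls174 they numbered 4 without control 1 and 0 without any 1 of the other libraries.

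**Figure D1:**
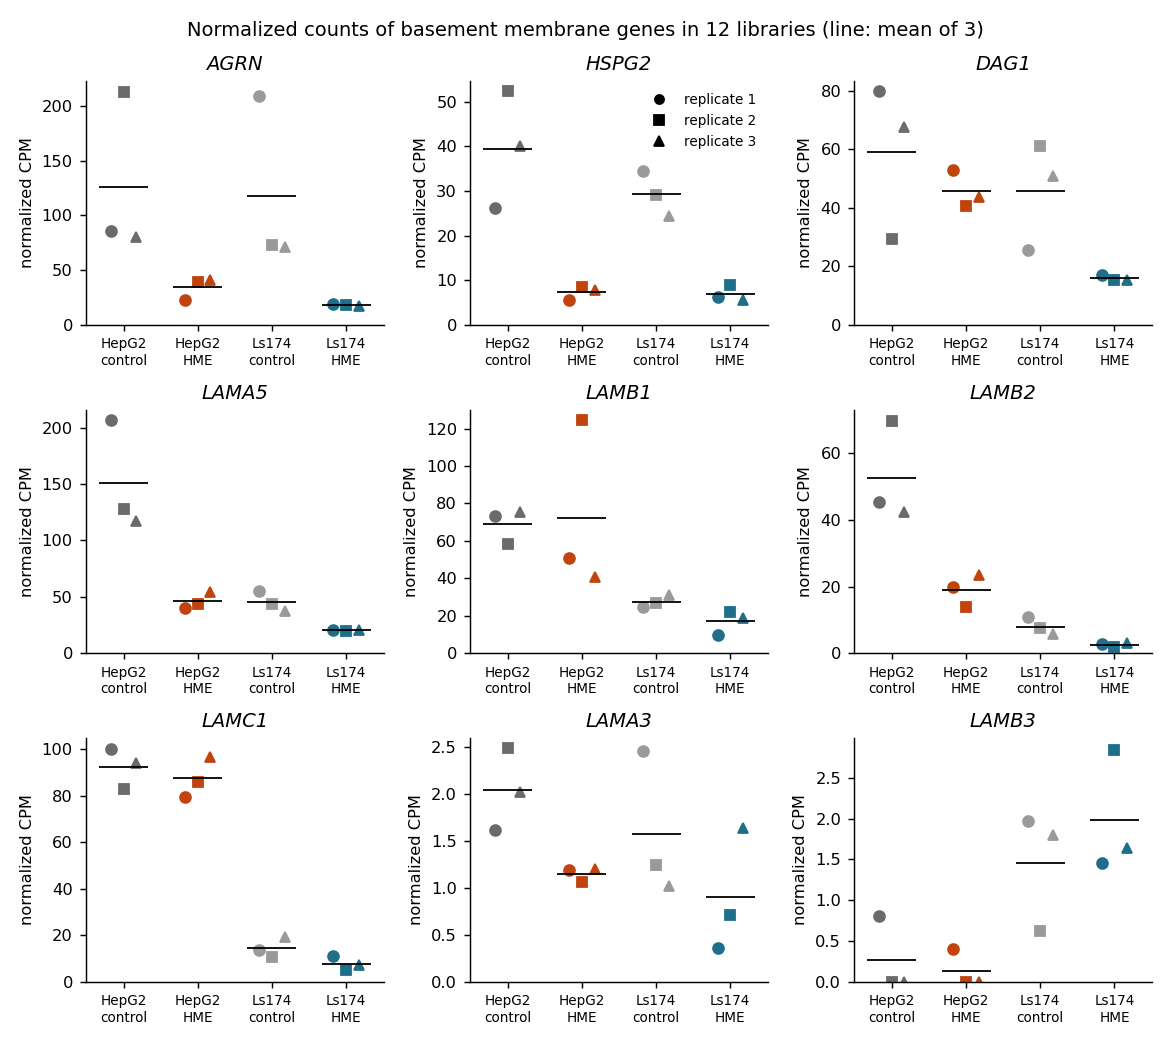
Normalized CPM (vertical axes, linear, each gene with its own scale) of the 9 genes in the 12 libraries, with symbols for replicate 1, 2 and 3 and a line at the mean of 3. All HME points of HSPG2, AGRN, LAMA5 and LAMB2 lie below the control points of their line, LAMC1 overlaps between HME and control in both lines, and LAMA3 and LAMB3 stay at or under 2.84 CPM.

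AGRN encodes agrin, a heparan sulfate proteoglycan of basement membranes that also clusters receptors at the neuromuscular junction. In HepG2 its normalized level (CPM after TMM over all 12 libraries) was 85.5, 213 and 80.0 in control replicates 1, 2 and 3 and 22.6, 39.2 and 40.8 with HME. In Ls174 it was 209.5, 72.9 and 71.4 in the controls and 18.6, 18.1 and 17.4 with HME. The groups did not overlap in either line, and in each line the control that stood apart had the highest value by more than 2 times the next one. The mean was 126 ± 75.3 CPM in controls and 34.2 ± 10.1 CPM with HME in HepG2, and 118 ± 79.3 against 18.0 ± 0.588 CPM in Ls174 (SD, n = 3 each). The log2 fold change was −1.90 (SE 0.48) in HepG2 and −2.71 (SE 0.45) in Ls174. Without the control that stood apart, it was −1.21 in HepG2 and −1.99 in Ls174, still negative in both. Among all genes tested, these fold changes lay at percentile 1.68 in HepG2 and 0.0707 in Ls174.

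HSPG2 encodes perlecan, the large heparan sulfate proteoglycan that bridges laminin and collagen IV networks. Its level in HepG2 was 26.1, 52.3 and 40.0 CPM in the controls and 5.54, 8.48 and 7.81 CPM with HME. In Ls174 it was 34.4, 29.2 and 24.3 CPM in the controls and 6.19, 8.89 and 5.59 CPM with HME. Every HME library was below every control library, with counts of 13 to 25 against 70 to 99. The mean fell from 39.5 ± 13.1 to 7.28 ± 1.54 CPM in HepG2 and from 29.3 ± 5.05 to 6.89 ± 1.76 CPM in Ls174 (SD, n = 3 each), 5.38-fold and 4.25-fold by the fits. The log2 fold changes were −2.43 (SE 0.41) and −2.09 (SE 0.31), at percentiles 0.458 and 0.451 of all genes tested. Leaving out any library gave a log2 fold change between −2.67 and −2.10 in HepG2 and between −2.30 and −1.94 in Ls174, a narrower range than for AGRN.

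LAMA5 encodes laminin α5, the α chain of the laminins most common in adult epithelial basement membranes. The HepG2 levels were 206.8, 128 and 117 CPM in the controls and 40.0, 43.8 and 54.7 CPM with HME. The Ls174 levels were 55.1, 43.8 and 37.6 CPM in the controls and 20.8, 19.6 and 20.4 CPM with HME. The groups did not overlap in either line, and the treated HepG2 libraries overlapped in level with the untreated Ls174 libraries. This was a log2 fold change of −1.70 (SE 0.34) in HepG2 and −1.17 (SE 0.24) in Ls174. The part of reads of ADRM1, on the other strand, in the LAMA5 counts was not tested.

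LAMA3 encodes laminin α3, a chain of the laminin of hemidesmosomes in skin and other stratified epithelia. It had 4 to 6 counts in the HepG2 controls, 2 to 3 in HepG2 with HME, 4 to 5 in the Ls174 controls and 1 to 5 in Ls174 with HME. These counts are at or near the floor of 3, so a difference was not detectable at this depth and no fold change is given.

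LAMB2 encodes laminin β2, a β chain prominent in the glomerulus and at the neuromuscular junction. In HepG2 it had 45.4, 69.8 and 42.4 CPM in the controls and 19.8, 13.8 and 23.4 CPM with HME. In Ls174 it had 10.8, 7.45 and 5.63 CPM in the controls and 2.91, 1.78 and 2.96 CPM with HME. The groups did not overlap in either line, but the treated Ls174 libraries rested on only 8, 5 and 9 counts. On the log2 scale the difference was −1.47 (SE 0.37) in HepG2 and −1.61 (SE 0.50) in Ls174.

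LAMB1 encodes laminin β1, the more widespread β chain. In HepG2 its level was 73.1, 58.6 and 75.2 CPM in the controls and 50.6, 124 and 40.8 CPM with HME. In Ls174 it was 24.6, 27.0 and 31.2 CPM in the controls and 9.84, 22.0 and 19.1 CPM with HME. The HepG2 groups overlapped because of HME 2 alone, since the other HME libraries were below every control, and the Ls174 groups did not overlap. Its log2 fold change was 0.08 (SE 0.43) in HepG2 and −0.71 (SE 0.33) in Ls174. The sign in HepG2 turned with the library and the region counted. In HME 2, 134 of 352 LAMB1 counts came from an internal region, chr7:107582647-107582843, which had 0 to 8 counts in the other 11 libraries. The log2 fold change was −0.28 with that region left out and −0.56 with HME 2 left out. HME 2 is also the library with 2730 counts of mesenchymal markers, where other basement membrane genes had single high values: COL4A2, a chain of the main collagen IV, had 118 counts there and 0 to 10 elsewhere, and PXDN, the peroxidase that crosslinks collagen IV, had 121 counts there and 0 to 3 in the other HepG2 libraries. The part of this material in the LAMB1 value was not tested beyond leaving out the region or the library.

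**Figure D2:**
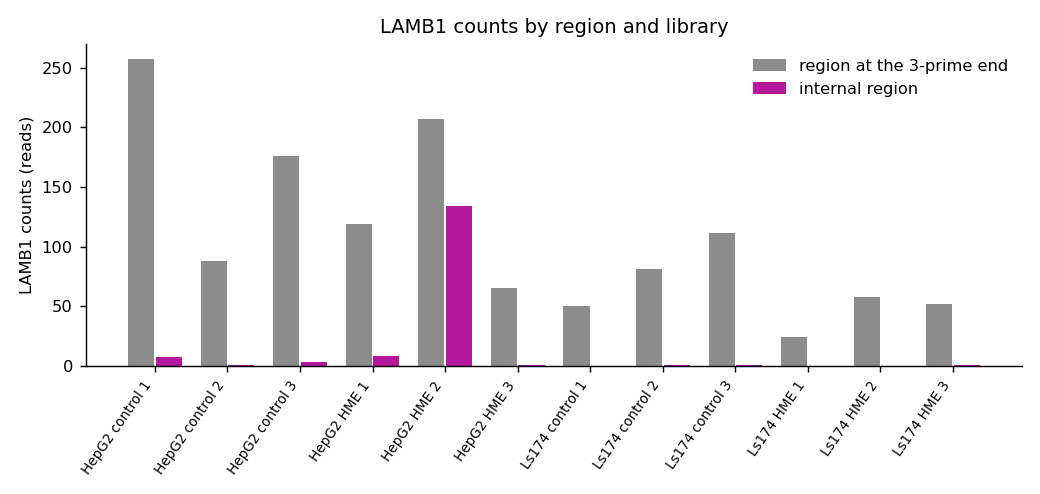
LAMB1 counts (reads, vertical axis from 0, not normalized) in the region at the 3′ end and in the internal region, as bars for each of the 12 libraries. The internal region reaches 134 counts in HepG2 HME 2 and at most 8 in any other library.

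LAMB3 encodes laminin β3, the partner of α3 in the hemidesmosomal laminin. It had 0 to 3 counts per library in HepG2 under either condition, at or under the floor, and 2 to 7 counts in the Ls174 controls against 4 to 8 with HME. The Ls174 groups overlapped, and at these counts a change was not detectable.

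LAMC1 encodes laminin γ1, the γ chain shared by most laminins. In HepG2 its level was 100.03, 82.9 and 94.2 CPM in the controls and 79.5, 85.9 and 96.7 CPM with HME. In Ls174 it was 13.8, 10.6 and 19.2 CPM in the controls and 10.9, 4.98 and 7.23 CPM with HME. The groups overlapped in both lines. The log2 fold change was −0.07 (SE 0.28, 95% interval −0.70 to 0.56) in HepG2 and −0.92 (SE 0.41, 95% interval −1.85 to 0.0076) in Ls174. In HepG2, LAMC1 stayed between 79.5 and 100.03 CPM over all 6 libraries.

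DAG1 encodes dystroglycan, which is cleaved into the α subunit that binds laminin, agrin and perlecan and the β subunit that spans the membrane. Its level in HepG2 was 80.1, 29.3 and 67.5 CPM in the controls and 53.0, 40.7 and 43.8 CPM with HME. In Ls174 it was 25.6, 61.2 and 50.9 CPM in the controls and 17.1, 15.3 and 15.4 CPM with HME. The groups overlapped in HepG2 and not in Ls174, and in each line the control that stood apart had the lowest DAG1 level of the controls, where AGRN had its highest. DAG1 thus had a log2 fold change of −0.34 (SE 0.37) in HepG2 and −1.53 (SE 0.33) in Ls174. Without the control that stood apart, it was −0.62 in HepG2 and −1.80 in Ls174.

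**Figure D3:**
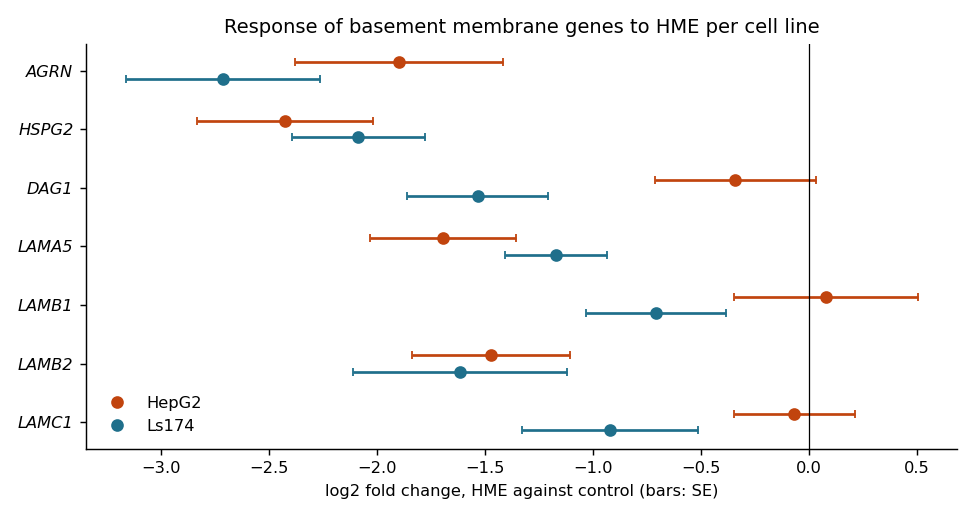
Log2 fold change of HME against control (horizontal axis) of the 7 genes with enough counts, in HepG2 (orange) and Ls174 (blue), with bars of 1 SE. AGRN, HSPG2, LAMA5 and LAMB2 lie between −2.71 and −1.17 in both lines, while LAMB1, LAMC1 and DAG1 lie between −0.34 and 0.08 in HepG2 and between −1.53 and −0.71 in Ls174.

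Over all 9 genes, the HME libraries lay below the control libraries without overlap for 5 genes in HepG2 (AGRN, HSPG2, LAMA5, LAMB2 and LAMA3, the last with at most 6 counts) and for 6 genes in Ls174 (AGRN, HSPG2, LAMA5, LAMB1, LAMB2 and DAG1). Among all genes tested, 15.3% lay below without overlap in HepG2 and 12.2% in Ls174. No member lay above its controls without overlap in either line, where 15.5% and 11.6% of all genes did. LAMA3 and LAMB3 failed the filter and are not among the tested genes behind these shares. Since the members were chosen on these contrasts, nothing is read from their counts. In these bulk samples, fewer cells of a type and less RNA per cell cannot be told apart.

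The balance between laminin chains was described by the share of each chain in the counts of a pair, over the leading regions. LAMB2 made up 39.7%, 55.8% and 37.1% of the LAMB1 and LAMB2 counts in HepG2 controls 1, 2 and 3 and 29.6%, 15.9% and 37.5% with HME. In Ls174 the share ranged from 16.5% to 30.6% in the controls and from 7.94% (5 of 63 counts) to 25% (8 of 32 counts) with HME. The groups overlapped in both lines, although the median share was lower with HME in each. LAMA5 made up 55.9% to 67.8% of the LAMA5 and LAMC1 counts in the HepG2 controls and 34.3% to 36.7% with HME. The exact Clopper-Pearson 95% intervals of the treated libraries, which cover counting error only, reached at most 43.1%, below the lowest control share. In Ls174 this share was 65.8% to 80.2% in the controls and 66.3% to 80.0% with HME, and the groups overlapped. The chains of each pair are members chosen on these contrasts. The shares and their intervals restate the members' counts, so nothing is read from them.

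The GC content of the counted regions ran from 35.4% in LAMB1 to 65.9% in LAMB2, and in HepG2 the 4 members that were lower at the study's thresholds had a higher GC content (52.3% to 65.9%) than the other 3 (35.4% to 50.1%). In HepG2, the median log2 fold change over all genes went from 0.12 at 25% to 30% GC to −0.71 at 65% to 70% GC, and in Ls174 from −0.03 to −0.18. Against genes within 2.5 percentage points of their own GC content, AGRN in HepG2 (−1.90) stood beside a median of −0.44 and at percentile 3.12. HSPG2 (−2.43) stood beside −0.41 at percentile 0.757, LAMA5 (−1.70) beside −0.16 at percentile 2.61, and LAMB2 (−1.47) beside −0.58 at percentile 9.09. LAMB1, LAMC1 and DAG1 lay between percentiles 38.9 and 48.5 of their neighbours, near the middle. In Ls174, AGRN, HSPG2, LAMA5, LAMB2 and DAG1 lay between percentiles 0.287 and 3.89 of genes of like GC content, LAMC1 at 6.28 and LAMB1 at 12.2. With a GC offset in the fit, AGRN in HepG2 was at −1.51, HSPG2 at −2.13, LAMA5 at −1.68 and LAMB2 at −1.03. The genes were chosen on these contrasts, so nothing is read from their percentiles, and GC content as a cause was not tested.

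**Figure D4:**
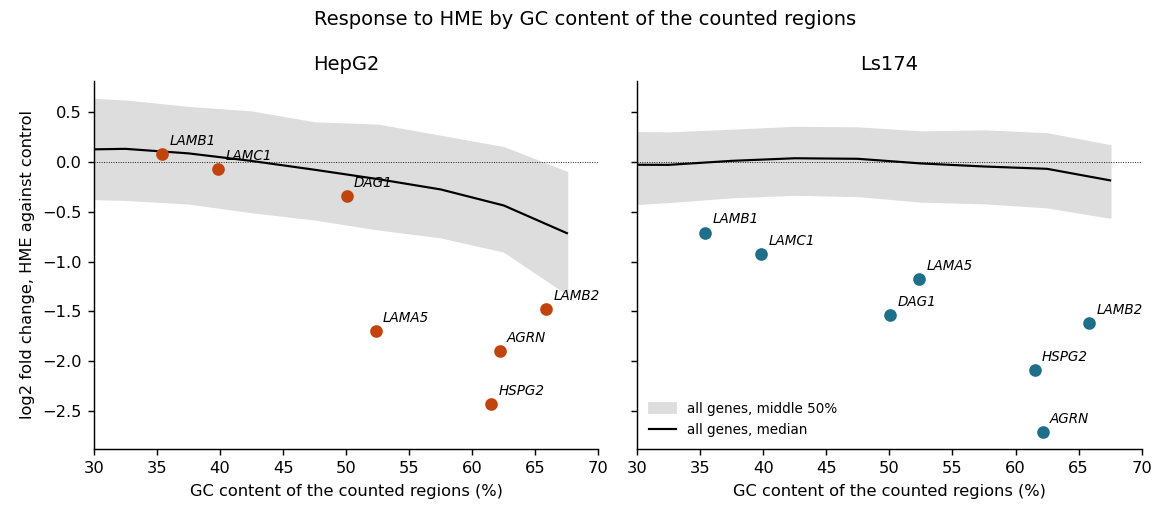
Log2 fold change of HME against control (vertical axis) against the GC content of the counted regions in percent (horizontal axis) for the 7 genes in HepG2 (left) and Ls174 (right), with the median (line) and the middle 50% (grey) of all genes in bins of 5 percentage points. The median of all genes falls to −0.71 at the highest GC content in HepG2 and to −0.18 in Ls174, and AGRN, HSPG2, LAMA5 and LAMB2 lie below the grey band in both.

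In untreated cells, all 7 genes with enough counts had a higher fitted level in HepG2 than in Ls174 (AGRN by only 0.15, which turned to −0.10 with scaling by library size and to −0.23 with a GC offset), with a median log2 difference of 1.35 (HepG2 minus Ls174) against 0.04 over all 11907 genes tested. The widest differences were those of LAMB2, at 2.78 (SE 0.42), and LAMC1, at 2.69 (SE 0.36), where the lowest HepG2 control was above the highest Ls174 control by 42.4 against 10.8 CPM and by 82.9 against 19.2 CPM. LAMA5 differed by 1.76 (SE 0.36) and LAMB1 by 1.35 (SE 0.31), again without overlap between the controls. These 4 genes were called at an adjusted p under 0.05 by edgeR, as were 14.2% of all genes in the same direction, and the controls of 22.3% of all genes lay higher in HepG2 without overlap. AGRN differed by 0.15 (SE 0.57), HSPG2 by 0.47 (SE 0.38) and DAG1 by 0.38 (SE 0.46), with overlapping controls in each. The value of AGRN was −0.48 without HepG2 control 2, −0.10 without Ls174 control 2 or 3 and 0.85 without Ls174 control 1, so its direction was not settled. LAMB3, not fitted for its low counts, had 13 counts over the 3 Ls174 controls and 3 over the 3 HepG2 controls, with overlapping libraries.

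The difference between the HME responses was fitted over all 12 libraries as the log2 fold change in HepG2 minus that in Ls174. It was 0.82 (SE 0.66) for AGRN, −0.34 (SE 0.50) for HSPG2, −0.55 (SE 0.40) for LAMA5, 0.77 (SE 0.56) for LAMB1, 0.12 (SE 0.49) for LAMB2, 0.83 (SE 0.44) for LAMC1 and 1.16 (SE 0.53) for DAG1. By edgeR, 0 of the 7 genes were called at an adjusted p under 0.05, where 0.644% of 13040 genes were. DESeq2 also called 0. At the study's thresholds DAG1 alone was past the limit on the higher side, where 7.42% of all genes were. The 95% intervals ran from −0.58 to 2.22 for AGRN, from −1.41 to 0.72 for HSPG2 and from 0.018 to 2.29 for DAG1. When any library was left out, the DAG1 difference stayed positive, between 0.83 and 1.43. The sign of LAMB2 turned in 5 of the fits that left out a library, to between −0.13 and −0.00281.

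The pattern of AGRN over the libraries was set beside that of every other gene by Pearson's r of log2 CPM after subtracting the mean of each line, over 12 libraries and 13038 genes. The libraries share the treatment and the controls that stood apart, so r is a description. The 5 genes most like AGRN were HYOU1, a chaperone of the endoplasmic reticulum (r = 0.98), TMEM248 (0.98), ACACB, the acetyl-CoA carboxylase at mitochondria (0.97), ST6GALNAC1, a sialyltransferase (0.97), and TCTN3, a protein of the ciliary transition zone (0.96). Of these, ACACB failed the filter on low counts in the Ls174 fit. Among the members, LAMB2 (r = 0.92, rank 35) and HSPG2 (r = 0.92, rank 37) came closest, followed by LAMA5 (r = 0.84, rank 232). LAMC1 (0.55), LAMB1 (0.37) and DAG1 (0.36) were less like AGRN. Between HSPG2, LAMA5 and LAMB2, the pairwise r lay between 0.89 and 0.90.

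The rest of the pathway was taken from 9 lists of 132 genes, which cover other laminin chains, other basement membrane proteins, laminin and agrin receptors, the dystrophin complex, dystroglycan O-mannosylation, heparan sulfate synthesis, collagen processing, matrix proteases with their inhibitors, and desmosomal and hemidesmosomal anchors. In HepG2, 91 of them were tested, of which 2 rose with HME, 0 fell and 89 did not pass (edgeR, adjusted p under 0.05). Their median log2 fold change was −0.11, and 49 lay below 0. In Ls174, 85 were tested, of which 8 fell, 1 rose and 76 did not pass. Their median was −0.58, against −0.00287 over all genes tested, and 67 of 85 lay below 0. Of all genes tested in HepG2, 2.77% were called higher, 0.538% lower and 3.31% in either direction. In Ls174, 0.318% were called higher, 0.866% lower and 1.18% in either direction. The counts of each list given below stand beside these same shares. Called list genes in Ls174 numbered 34 without control 1 and 0 without any of the other 5 libraries. In HepG2 they numbered 4 without control 2, 1 without control 1 and 0 without control 3 or any HME library. At the study's thresholds, 11 of the 91 list genes were lower and 11 higher in HepG2, where 10.9% and 11.3% of all genes were. In Ls174, 32 of the 85 were lower and 4 higher, where 7.85% and 4.11% of all genes were. DESeq2 called 7 list genes in HepG2, where it called 1033 of all 11343 genes. In Ls174 it called 19 list genes and 434 of all 11319 genes.

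Among other laminin chains on the lists, LAMA1, LAMA2, LAMA4, LAMB4 and LAMC3 had at most 4 counts in any library, and no fold change is given for them. The laminin chains of the 9 followed genes with enough counts were α5, β1, β2 and γ1 in both lines, with low counts of α3 in both and of β3 mainly in Ls174.

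Among other basement membrane proteins, 3 of 7 tested genes fell in Ls174 and 0 rose. NID1, nidogen-1, which links laminin γ1 to collagen IV, had 41.8, 23.0 and 21.5 CPM in the Ls174 controls and 6.19, 4.98 and 5.91 CPM with HME, which is −2.32 on the log2 scale (SE 0.37, adjusted p = 0.0344). PXDN fell by 1.96 (SE 0.33, adjusted p = 0.0363) and the calcium-binding matrix protein SMOC2 by 1.24 (SE 0.20, adjusted p = 0.0344) on the log2 scale. The median log2 fold change of this list in Ls174 was −1.23, with 6 genes below 0 and 1 above. In HepG2 the median was −1.06, against −0.04 over all genes tested, with 6 genes below 0 and 3 above. There, 0 of 9 tested genes of this list passed the adjusted test and 3 passed the study's thresholds on the lower side. NID1 there was 51.9, 194 and 66.3 CPM in the controls and 62.9, 38.2 and 31.2 CPM with HME, so the groups overlapped, and COL18A1, the collagen that gives endostatin, stood at −1.14 on the log2 scale (SE 0.38, adjusted p = 0.124). The control with the high NID1 level was control 2, as for AGRN.

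Among laminin and agrin receptors, 1 of 12 tested genes rose in HepG2 and 1 of 9 fell in Ls174, against 2.77% and 0.866% of all genes tested. In Ls174, 8 receptors lay below 0 and 1 above, with a median of −0.92, and 6 passed the study's thresholds on the lower side. In HepG2, 7 lay above 0 and 5 below, with a median of 0.22. ITGA2, the integrin α2 subunit that pairs with β1 to bind collagen and laminin, had 22.6, 17.4 and 12.1 CPM in the HepG2 controls and 47.1, 67.5 and 64.9 CPM with HME, which is 1.78 on the log2 scale (SE 0.35, adjusted p = 0.0248). In Ls174 it had 11.3, 14.3 and 16.6 CPM in the controls and 6.92, 1.78 and 3.94 CPM with HME, or −1.75 on the log2 scale (SE 0.49, adjusted p = 0.163). LRP4, the receptor of agrin at the neuromuscular junction, fell in Ls174, at −2.12 on the log2 scale (SE 0.37, adjusted p = 0.0392), and stood at −1.35 (SE 0.55, adjusted p = 0.189) in HepG2. The LRP4 level of Ls174 control 1, at 30.5 CPM, was below those of controls 2 and 3, at 85.7 and 78.9 CPM, and above those with HME, at 14.5 to 15.3 CPM.

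In the dystrophin complex, which ties dystroglycan to the cytoskeleton, 1 of 9 tested genes rose in HepG2 and 0 of 6 passed in Ls174. DTNA, dystrobrevin α, rose from 43.6, 48.0 and 45.3 CPM to 109, 102 and 145 CPM in HepG2, which is 1.39 on the log2 scale (SE 0.30, adjusted p = 0.0402). SGCB, a sarcoglycan, stood at 3.92 on the log2 scale (SE 1.13, adjusted p = 0.0896) in HepG2, a value that rested on 506 counts in HME 2, against 45 and 7 in the other HME libraries. Of the enzymes and helpers of dystroglycan O-mannosylation, 16 were tested in each line and 0 passed in either, with medians of −0.29 in HepG2 and −0.37 in Ls174. The numbers past the study's thresholds were 2 higher and 1 lower in HepG2 and 0 higher and 4 lower in Ls174. DESeq2 called 0 of them in HepG2 and 1 in Ls174.

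Heparan sulfate, the sugar chain of agrin and perlecan, is built by enzymes of which 2 of 18 tested fell in Ls174 and 0 of 16 passed in HepG2. In Ls174, 14 of them lay below 0 and 4 above, with a median of −0.54. NDST1, which starts sulfation of the chain, fell in Ls174 by 1.17 (SE 0.21, adjusted p = 0.0392), from 76.7, 62.1 and 64.0 CPM to 26.6, 33.1 and 30.9 CPM. HS2ST1, a 2-O-sulfotransferase of the chain, fell by 1.11 (SE 0.21, adjusted p = 0.0487). In HepG2 their log2 fold changes were −0.54 (SE 0.30) and −0.40 (SE 0.29). Among collagen processing enzymes, all 9 tested in Ls174 had a negative log2 fold change, with a median of −0.64, but 0 passed the adjusted test and 4 the study's thresholds.

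Of the matrix proteases and inhibitors, 1 of 10 fell in Ls174, the sheddase ADAM10 (−1.62 on the log2 scale, SE 0.27, adjusted p = 0.0348), and 0 of 9 passed in HepG2. All 10 had a negative log2 fold change in Ls174, with a median of −0.69, and 5 passed the study's thresholds. In HepG2, 5 lay above 0 and 4 below, with a median of 0.37. Of the desmosomal and hemidesmosomal anchors, KRT8, a keratin of simple epithelia, rose in Ls174 by 1.28 on the log2 scale (SE 0.21, adjusted p = 0.0357), while the desmosomal cadherin DSC2 fell by 1.30 (SE 0.23, adjusted p = 0.0392). No gene of this list passed in HepG2, where 1 passed the study's thresholds.

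**Figure D5:**
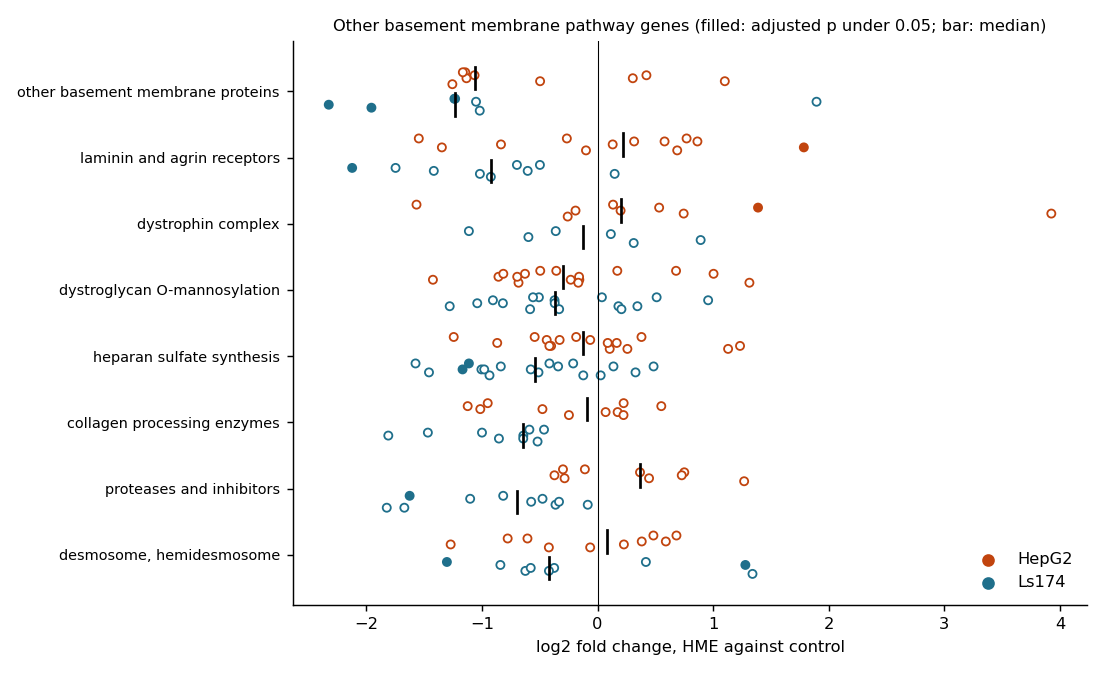
Log2 fold change of HME against control (horizontal axis) of the tested genes of the pathway lists other than laminin chains (vertical axis), with HepG2 in orange and Ls174 in blue, filled where the adjusted p from edgeR was under 0.05, and a bar at the median of each list and line. In Ls174 most genes lie below 0 and 9 are filled, and in HepG2 the genes lie on both sides of 0 and 2 are filled.

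In untreated cells, 28 of 95 tested pathway genes were higher in HepG2 and 14 were lower (edgeR, adjusted p under 0.05), against 14.2% and 9.33% of all genes tested. Among other basement membrane proteins, 6 were higher in HepG2 and 2 lower. SMOC2 had 0 counts in all HepG2 controls and 199.95 to 255 CPM in the Ls174 controls, and PXDN had 0 to 3 counts against 38.9 to 69.3 CPM. NID1 (1.92, SE 0.57, adjusted p = 0.0392) and COL18A1 (2.07, SE 0.52, adjusted p = 0.0194) were higher in HepG2, the same side as the laminin chains. Of the receptors, SDC1 (1.84, SE 0.38, adjusted p = 0.00662), a syndecan, was higher in HepG2, and LRP4 (−2.40, SE 0.54, adjusted p = 0.0106) and the laminin-binding integrin subunit ITGA6 (−2.29, SE 0.54, adjusted p = 0.0141) were higher in Ls174. The difference between the HME responses passed for 3 of 100 tested pathway genes, against 0.644% of all genes tested, and their median difference was 0.51 against −0.04 over all genes.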

How the data were processed

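Total RNA of 12 cultures was sequenced as 3′ QuantSeq libraries on an Ion Proton, and the study describes the 3 cultures of a group as biological replicates. The authors aligned the reads to hg19 (GRCh37) with Hisat2 and deposited raw counts per 3′ region for metaseqR2, while the submitters' processing notes also name Bowtie2 and Trimmomatic. The metaseqR2 version, the strand setting and the treatment of reads with several matches are not given in the sources used here, and both of the latter could change the counts of overlapping genes. The study names a binomial test with metaseqR2. The quasi-likelihood test of edgeR, which takes the spread between replicates into account, was used here instead.

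The regions of a gene were summed. Genes with low counts were removed with filterByExpr of edgeR 4.0.16 (R 4.3.3), libraries were scaled with TMM, and each comparison was fitted with the quasi-likelihood test, within the 6 libraries concerned or, for the difference between responses, over all 12. p-values were adjusted by Benjamini-Hochberg over all genes tested, with a limit of 0.05. SE was the size of the log2 fold change divided by the square root of F, and 95% intervals used the t distribution with the degrees of freedom of the fit. The code was tested on simulated data. The members and lists were chosen with earlier results of these data known. The genes named were the members, up to 4 called genes of each list and comparison, genes overlapping a member, and the 5 most like AGRN (log2 CPM with a prior count of 2). COL4A2, COL18A1 and SGCB, and values of listed genes outside the comparison that called them, were picked after their values were seen.

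Alternatives were DESeq2 1.42.0, other scalings and filters, a replicate block, a GC offset (loess, span 0.3), other choices of region, 1 fit of all libraries and leaving out each library. Leaving out the internal LAMB1 region, or both controls that stood apart, was added after seeing the data. The values of 1 listed gene are not reported here. Figures were drawn with matplotlib 3.10.9 in Python 3.11.15.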

Additional observations from a re-analysis of the deposited data

Results flagged for a closer look

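The response to HME differed between the lines for 3 of the listed pathway genes by the test of the difference itself (log2 fold change in HepG2 minus that in Ls174, edgeR over 12 libraries, adjusted over all genes). Fits that left out a library called between 0 and 4 pathway genes.

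ITGA2, an integrin subunit of collagen and laminin receptors, differed by 3.51 (SE 0.57, adjusted p = 0.0125), with every HepG2 HME library above and every Ls174 HME library below the controls of its line.

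TIMP2, an inhibitor of matrix metalloproteinases, differed by 2.504 (SE 0.48, adjusted p = 0.0311). Its level was 83.6, 67.9 and 91.7 CPM in the HepG2 controls and 108, 151 and 139 CPM with HME, against 8.85, 4.66 and 4.35 CPM in the Ls174 controls and 1.46, 1.78 and 1.64 CPM with HME. The treated Ls174 libraries held only 4 to 5 TIMP2 counts each.

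DSC2, a desmosomal cadherin, differed by 1.76 (SE 0.36, adjusted p = 0.0382), with log2 fold changes of 0.48 (SE 0.29) in HepG2 and −1.30 (SE 0.23) in Ls174.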

How the results depend on the processing

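LAMA3 and LAMB3 failed the filter and are left out of this tally. Of 505 log2 fold changes of the other 7 genes under an alternative, 447 kept their direction and their side of the limit. A further 23 no longer passed it, 18 newly passed it and 17 turned sign. Where no cause is given below, the cause was not tested.

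Among all genes, HepG2 had 375 calls, against 1033 with DESeq2, 1407 without the filter, 188 with at least 10 counts in every library, 807 in the fit of 12 libraries and 95 to 921 with a library left out. Ls174 had 134, against 434, 604 and 0 with DESeq2, without the filter and with the replicate block, and 0 to 979 with a library left out. The untreated lines had 2798, against 912 with at least 10 counts (fewer genes tested) and 4631 in the fit of 12 libraries, and 2134 to 3367 with a library left out. The difference between responses had 84, against 380 with DESeq2, 49 with library size, 367 without the filter, 46 with at least 10 counts, 16 with the replicate block, 433 without both controls that stood apart and 17 to 143 with a library left out.

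Of the 9 genes, HepG2 had 2 calls, against 4 with DESeq2, with library size, without the filter and in the fit of 12 libraries, 1 with the replicate block, 0 with overlapping regions left out and 0 to 4 with a library left out. Ls174 also had 2, against 4 with DESeq2 and without the filter, 0 with the replicate block, 0 with overlapping regions left out and 0 to 4 with a library left out. Leaving out overlapping regions removes AGRN, HSPG2 and LAMA5 by its construction. The untreated lines kept 3 to 4 calls and the difference between responses 0 under every alternative run.

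Of the pathway genes, HepG2 had 2 calls, against 7 with DESeq2, 1 with library size, 12 without the filter, 1 with the replicate block, 1 with the GC offset and 0 to 4 with a library left out. Ls174 had 9, against 19 with DESeq2, 20 without the filter, 0 with the replicate block, 5 with the GC offset, 5 in the fit of 12 libraries and 0 to 34 with a library left out. The untreated lines had 42, against 13 with at least 10 counts, and 31 to 45 with a library left out. The difference between responses had 3, against 7 with DESeq2, 1 with library size, 6 without the filter, 1 with at least 10 counts, 0 with the replicate block, 1 with overlapping regions left out, 6 without both controls that stood apart and 0 to 4 with a library left out.

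LAMB1 in HepG2 (0.08) turned to −0.12 with library size, −0.10 with the replicate block, −0.27 with the largest region only, −0.11 with the GC offset and −0.28 without the internal region, and ran from −0.56 to 0.37 with a library left out. LAMC1 in HepG2 (−0.07) ran from −0.14 to 0.020 with a library left out. AGRN between untreated lines (0.15) turned to −0.10 with library size and −0.23 with the GC offset, and ran from −0.48 to 0.85 with a library left out. LAMB2 in the difference between responses (0.12) ran from −0.13 to 0.35 with a library left out. Scaling by library size moved the median of all genes from −0.04 to −0.20 in HepG2 and from 0.04 to −0.17 between untreated lines.

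Libraries with the same replicate number did not deviate together (r from −0.15 to 0.07 in 6 control and HME pairs within the lines, with the untreated lines not checked against each other), so the numbers were not taken to pair the samples and a call lost under the block is not read as a weaker effect. The counts per library set the limit for LAMA3, LAMB3 and, in treated Ls174, LAMB2.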
